A study of Mus musculus with 12 samples.

Results

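The 10 genes described here are Hsf1, the transcription factor of the heat shock response, and 9 chaperone genes (Hspa1a, Hspa1b, Hspa8, Hsph1, Dnajb1, Hsp90aa1, Hsp90ab1, Hspb1 and Hspd1). They were taken by gene name from a table of 34745 mouse genes, in which each name occurred once. Their RNA was measured in 12 libraries of MLE-12 cells, a mouse alveolar type II epithelial line, at 24 h. The LPS group (n = 3) received 100 ng/mL lipopolysaccharide in 21% oxygen, and the LPS + M2-Exo group (n = 3) received in addition 10 μg/mL M2-Exo, exosomes of M2-polarized macrophages. The Hyp group (n = 3) was held in 85% oxygen without LPS, and the Hyp + M2-Exo group (n = 3) was given the same dose of M2-Exo in 85% oxygen. M2-Exo was added after the LPS or the oxygen, all 4 groups carry one of these injuries, and no untreated library was analysed here. Hyp and LPS therefore differ both in oxygen and in LPS, and which of the 2 goes with a difference between them cannot be told apart. The labels do not say whether the 3 libraries of a group came from separate cultures, so the p-values measure only the spread between these libraries.

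In resting cells HSF1 is held inactive by chaperones. When unfolded protein occupies the chaperones, HSF1 forms trimers, binds heat shock elements (inverted repeats of GAA) in promoters and raises transcription of chaperone genes. HSP70 proteins (Hspa1a, Hspa1b and the constitutive Hspa8, also called HSC70) fold clients together with the J-domain protein DNAJB1, which delivers clients, and the exchange factor HSP110 (Hsph1), which releases nucleotide. HSP90 (the inducible Hsp90aa1 and the constitutive Hsp90ab1) completes the folding of kinases and receptors, and HSP25 (Hspb1) holds unfolded protein. Hspd1 encodes HSP60, a chaperonin that is induced with the cytosolic genes but works in the mitochondrial matrix.

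The promoter stretches with heat shock element letters are shown for the members whose windows held them, since HSF1 is known to act through these letters. Letters of 3 units, GAANNTTCNNGAA or TTCNNGAANNTTC, and of 2 units, GAANNTTC or TTCNNGAA, were searched on both strands in the RefSeq windows from 250 bases before to 50 bases after a gene start (GRCm38.p6). Of 32851 windows, 0.603% held the letters of 3 units and 15.1% those of 2 units, and every match of 3 units holds matches of 2 units. The table of windows matched 6 of the 10 genes, with 9 windows. Hsf1, Hspa8, Hsp90aa1 and Hsp90ab1 were not searched. Capitals mark the matches below, and positions count from the gene start as +1.
Hspa1a, minus strand, chr17:34972207-34972306, positions -150 to -51: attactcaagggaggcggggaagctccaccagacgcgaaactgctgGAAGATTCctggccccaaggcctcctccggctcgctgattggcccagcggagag
Hspb1, plus strand, chr5:135887769-135887868, positions -150 to -51: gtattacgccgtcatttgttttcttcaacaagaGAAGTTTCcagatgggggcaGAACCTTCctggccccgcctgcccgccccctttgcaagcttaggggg
Hspd1, minus strand, chr1:55088053-55088082, positions -150 to -121 of the start at 55087932: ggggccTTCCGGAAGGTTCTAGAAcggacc
Hsph1, minus strand, chr5:149636280-149636309, positions 7 to 36 of the start at 149636315: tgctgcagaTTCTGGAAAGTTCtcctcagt

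The stretch of Hspa1b at chr17:34959289-34959388 holds the same bases as that of Hspa1a, and 247 of the 250 bases before the 2 starts were identical (98.8%). Hspa1a and Hspa1b each held 1 match of 2 units, at -104, and Hspb1 held 2, at -117 and -97. Only the windows of Hspd1 (2 overlapping matches, the first at -144, at the start shown) and Hsph1 (1 match, at 16) held 3 units, and Hsph1 held a further match of 2 units before its start, at -54. Neither window of Dnajb1 nor the other window of Hspd1 held these letters, which says only that the letters are not in those windows.

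Hspa1a and Hspa1b are neighbours on chromosome 17 (GRCm38, 34969190 to 34972156 and 34956436 to 34959238, both on the minus strand), and their transcripts are nearly the same: 58.8% of the 50-base stretches of Hspa1a also occur in Hspa1b, and 62.3% of those of Hspa1b in Hspa1a. How the counting placed reads that fit both is not given in the sources used here, so their separate values are uncertain and the sum is given as well. Hsp90aa1, Hspb1 and Hspd1 share 51.5%, 51.6% and 42.8% of such stretches with the pseudogenes Gm12346, Hsp25-ps1 and Hspd1-ps3, whose summed counts in the table equalled 28.41%, 24.68% and 29.42% of the gene's own. Hspa8 shares 45.3% with Gm15459, which was not matched in the table. The other members are Hsf1 (chromosome 15, 76477445 to 76500972), Hspa8 (9, 40800984 to 40805200), Hsph1 (5, 149614287 to 149636376), Dnajb1 (8, 83608175 to 83611902), Hsp90aa1 (12, 110690605 to 110702728), Hsp90ab1 (17, 45567775 to 45573271), Hspb1 (5, 135887919 to 135889563) and Hspd1 (1, 55077835 to 55088243). Hspd1 overlaps Hspe1 on the other strand, and whether the counting used strand is not given in the sources used here.

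Total counts per library ran from 16021833 to 24074616, and mitochondrially encoded genes took 3.85% to 4.17% of them in LPS, 3.62% to 3.96% in LPS + M2-Exo, 2.62% to 2.86% in Hyp and 2.74% to 2.92% in Hyp + M2-Exo. No 2 libraries of a group agreed within sampling noise. The line was checked against 12 epithelial and alveolar type II markers and 15 macrophage markers. Nkx2-1, the lung epithelial transcription factor, Krt8 and Abca3 were present in every library, though not all at steady levels. Nkx2-1 had 171.0 to 173.9 CPM in LPS and 37.8 to 41.8 CPM in Hyp. Sftpc, the surfactant protein that defines type II cells, had 21.5 to 23.3 CPM in LPS and 10.5 to 12.1 CPM in Hyp, and Sftpb had 1.26 to 1.77 and 4.12 to 5.04 CPM, whereas the surfactant genes Sftpa1 and Sftpd were at or near 0 and Epcam and Krt18 stayed below 1 CPM in the LPS and Hyp groups. Macrophage genes were present too. Csf1r, the receptor of macrophage colony stimulating factor, had 100.7 to 110.9 CPM in LPS and 17.7 to 21.9 CPM in Hyp, both without M2-Exo, while Chil3 was at 0 in every library. CPM, a gene's counts relative to the library's total, were scaled by the trimmed mean of M-values (TMM).

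Levels between genes were compared per length, in the unit of FPKM, from the counts, the total count and the length of the union of exons in GENCODE M21. On this scale Hsp90ab1 led in every group, with 808.1 ± 29.3 (SD, n = 3) in LPS and 548.6 ± 9.66 in Hyp. In LPS the order then ran Hspa8 (367.5 ± 12.6), Hsp90aa1 (148.8 ± 14.4), Hspd1 (140.2 ± 1.48), Hspb1 (68.8 ± 2.89), Dnajb1 (34.3 ± 0.907), Hsph1 (14.3 ± 0.513), Hsf1 (7.17 ± 0.320), Hspa1b (2.63 ± 0.184) and Hspa1a (0.965 ± 0.121). Of these neighbours, only Hsp90aa1 and Hspd1 had overlapping libraries. In Hyp, Hspa8 stood at 106.7 ± 17.7, below Hsp90aa1 (230.2 ± 3.72) and Hspd1 (181.4 ± 4.99), and no neighbours overlapped. The inducible pair Hspa1a and Hspa1b was last in all 4 groups. The order rests on the length used. The deposited FPKM imply longer genes for Hspa8, Hsp90ab1 and Hspb1 than the table's own coordinates span. For Hsf1 and Dnajb1 they imply shorter lengths (2018 and 2263 bases) than the union of exons (7099 and 3204 bases). On the deposited scale Hspd1 stood above Hsp90aa1 and Hsf1 above Hsph1 in both groups (in LPS 25.2 ± 1.13 and 9.21 ± 0.337 FPKM for the latter pair), Dnajb1 stood above Hspb1 in LPS (47.1 to 49.7 and 36.8 to 39.8 FPKM), and Hspa8 (50.5 ± 8.36 FPKM) and Hspb1 (48.8 ± 0.914 FPKM) overlapped in Hyp.

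**Figure D1:**
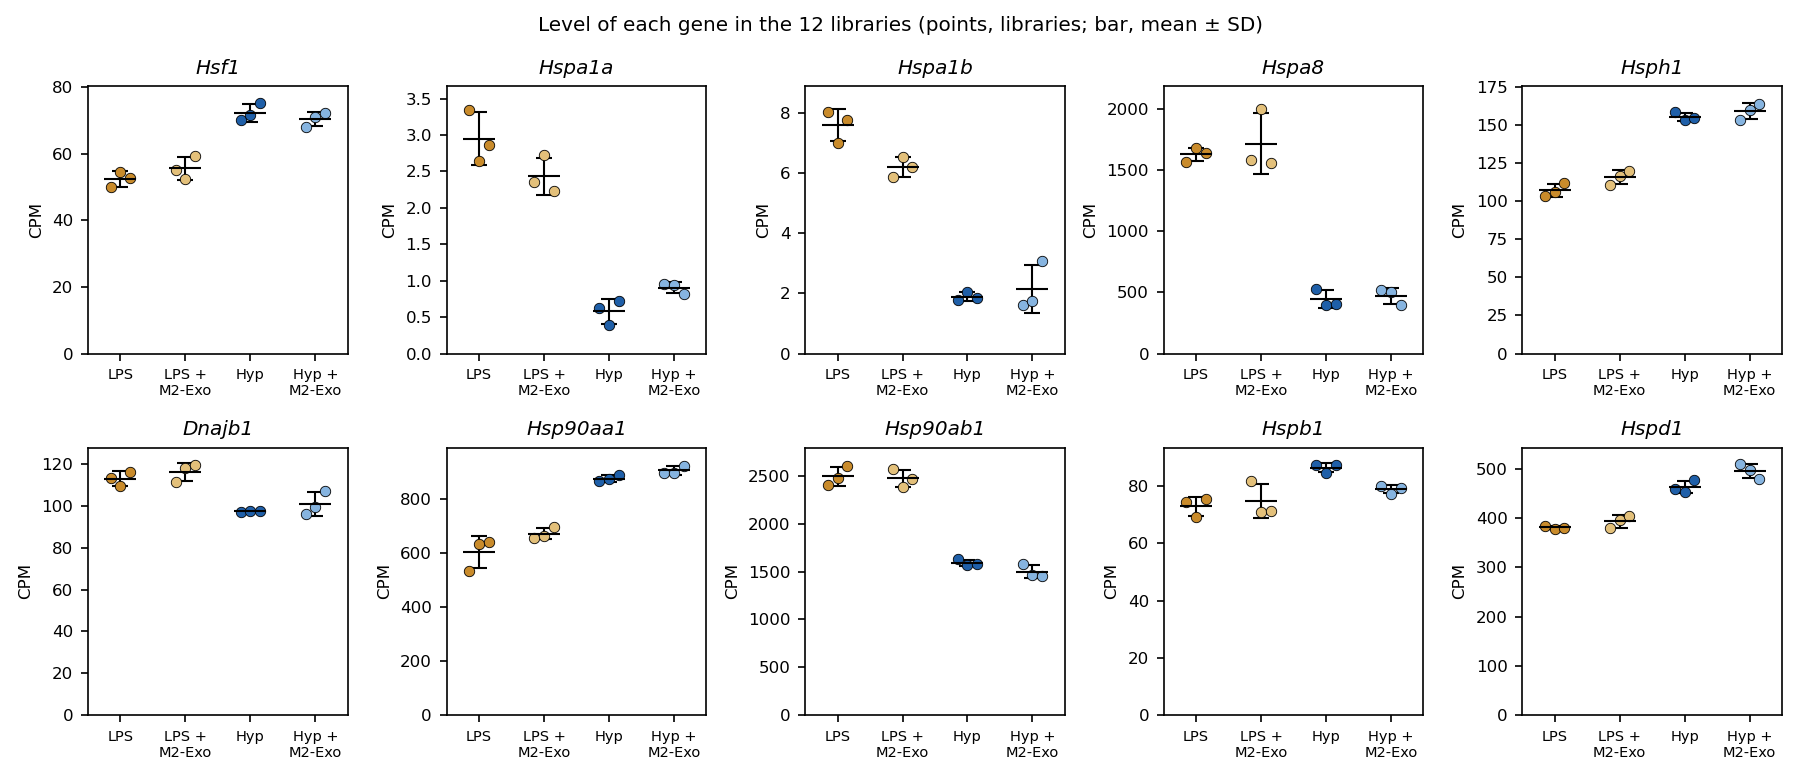
Level of each of the 10 genes in scaled counts (CPM, linear axis from 0) in the 4 groups, with 1 point per library and bars for the mean ± SD of 3 libraries. Hspa8 sits between 1557 and 2000 CPM in the 6 LPS and LPS + M2-Exo libraries and between 397.7 and 530.3 CPM in the 6 Hyp and Hyp + M2-Exo libraries.

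The first question was whether the 2 injury models differed in these genes. Compared with LPS, Hyp libraries had less HSP70 RNA (Hspa1a, Hspa1b and Hspa8), less constitutive HSP90 (Hsp90ab1) and slightly less Dnajb1, and more Hsf1, inducible HSP90 (Hsp90aa1), Hsph1, Hspb1 and Hspd1. All 10 genes passed the test at an adjusted p under 0.05 (edgeR quasi-likelihood, Benjamini-Hochberg over 13805 genes), 5 higher and 5 lower. Of all genes tested 75.8% passed, 38.0% higher and 37.8% lower, so that passing does not set these genes apart. The median size of their log2 fold changes was 0.538, beside 0.512 over all genes. The libraries of Hyp and LPS did not overlap for any of the 10, as for 78.8% of all genes.

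Marker genes differed between these libraries as well. The 15 macrophage markers summed to 461.7 to 512.9 CPM in LPS and 120.0 to 125.7 CPM in Hyp. Of the 12 of them tested, 10 were lower in Hyp and 1 higher (edgeR, adjusted p under 0.05), with a median log2 fold change of -2.02. The epithelial list summed to 562.2 to 578.0 CPM in LPS and 343.7 to 358.2 CPM in Hyp, and 7 of the 8 tested were lower and 1 higher, with a median of -0.91. Chil3 and Siglecf were at or near 0 in all groups. The mitochondrially encoded share given above was also lower in every Hyp library than in any LPS library. The part of these differences in the values of the heat shock genes was not tested. In RNA of whole cultures, fewer cells of a type and less RNA per cell cannot be told apart.

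**Figure D2:**
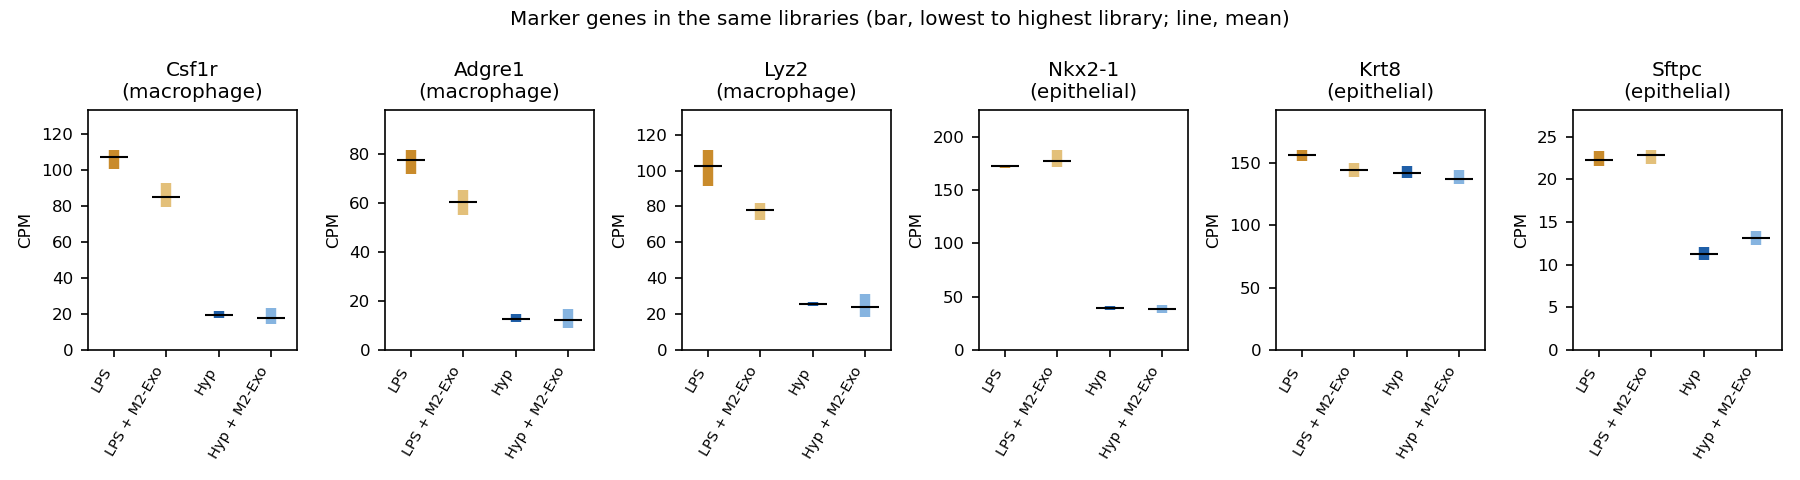
CPM (linear axes from 0) of 3 macrophage and 3 epithelial marker genes in the 4 groups, with bars from the lowest to the highest of 3 libraries and a line at the mean. Csf1r lies between 100.7 and 110.9 CPM in LPS and between 17.7 and 21.9 CPM in Hyp. Nkx2-1 lies between 171.0 and 173.9 CPM in LPS and between 37.8 and 41.8 CPM in Hyp. Krt8 lies between 151.8 and 160.3 CPM in LPS and between 138.1 and 147.9 CPM in Hyp.

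Hsf1 was measured at 49.9, 54.5 and 52.8 CPM in LPS and at 70.0, 71.5 and 75.2 CPM in Hyp. All 3 Hyp libraries were above all 3 LPS libraries, and the difference was 1.38-fold (log2 0.46, SE 0.0531; edgeR adjusted p = 8.33e-05). With M2-Exo on both sides, 55.1, 52.5 and 59.3 CPM in LPS + M2-Exo stood against 68.0, 71.0 and 72.1 CPM in Hyp + M2-Exo, a 1.26-fold difference.

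Hspa8 had 1568, 1677 and 1638 CPM in LPS and 530.3, 397.7 and 404.6 CPM in Hyp. The lowest LPS library was far above the highest Hyp library, and the fit gave a level 3.66-fold lower in Hyp (log2 -1.87, 95% confidence interval -2.12 to -1.63, adjusted p = 1.42e-06). Of all genes tested, 8.79% had a change of at least this size. Hspa8 alone held 29.8% ± 0.662 (SD, n = 3) of the counts of the 10 genes in LPS and 11.7% ± 1.65 in Hyp.

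The inducible HSP70 genes were the least abundant members. Hspa1b had 146, 130 and 144 counts in LPS (8.03, 6.99 and 7.77 CPM) and 43, 47 and 46 counts in Hyp (1.78, 2.06 and 1.84 CPM). Hspa1a had 61, 49 and 53 counts in LPS (3.35, 2.64 and 2.86 CPM) and 15, 9 and 18 in Hyp (0.620, 0.395 and 0.722 CPM). Both were lower in every Hyp library than in any LPS library, Hspa1b by 4.0-fold (95% confidence interval of log2 -2.29 to -1.71) and Hspa1a by 5.01-fold (-2.88 to -1.77). Counted as 1 gene, the pair differed by -2.09 on the log2 scale (edgeR adjusted p = 9.27e-07). Since reads from the stretches that both transcripts hold cannot be assigned to either gene, the 2 values are not fully separate measurements.

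The cofactors of HSP70 went different ways. Hsph1 had 103.5, 105.8 and 111.9 CPM in LPS and 158.4, 153.2 and 154.4 CPM in Hyp, 1.45-fold higher in Hyp with no overlap (log2 0.54, SE 0.0402). Dnajb1 had 113.4, 109.4 and 116.3 CPM in LPS and 97.1, 97.6 and 97.5 CPM in Hyp, a difference of 1.16-fold in the other direction (log2 -0.21, SE 0.0362, edgeR adjusted p = 0.000821). Scaled by library size alone, the log2 value of Dnajb1 was -0.12 (edgeR adjusted p = 0.0105). Per count of Hsph1 there were 15.2, 15.9 and 14.6 counts of Hspa8 in the LPS libraries and 3.35, 2.60 and 2.62 in the Hyp libraries. This ratio is taken within a library and does not depend on how libraries are scaled.

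The 2 cytosolic HSP90 genes also moved apart. Hsp90ab1 had 2408, 2475 and 2605 CPM in LPS and 1628, 1570 and 1578 CPM in Hyp, 1.57-fold lower in Hyp (log2 -0.65, SE 0.0415, edgeR adjusted p = 2.76e-06). Hsp90aa1 had 534.1, 634.4 and 638.9 CPM in LPS and 864.9, 873.1 and 888.5 CPM in Hyp, 1.45-fold higher in Hyp (log2 0.54, SE 0.0682, edgeR adjusted p = 0.000152). Within LPS, replicate 1 was the low library of Hsp90aa1. The libraries held 0.222, 0.256 and 0.245 counts of Hsp90aa1 per count of Hsp90ab1 in LPS and 0.531, 0.556 and 0.563 in Hyp, so the groups did not overlap. With the counts of Gm12346 added to those of Hsp90aa1, its log2 fold change was 0.51.

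Hspb1 and Hspd1 were higher in Hyp by smaller amounts. Hspb1 had 74.5, 69.3 and 75.4 CPM in LPS and 87.6, 84.6 and 87.3 CPM in Hyp, and Hspd1 had 385.1, 379.0 and 379.9 CPM and 459.7, 454.1 and 477.2 CPM. The differences were 1.18-fold (log2 0.24, SE 0.0456) and 1.22-fold (log2 0.28, SE 0.0297), and 74.0% and 70.1% of all genes tested had changes at least as large. With the counts of the pseudogene copies added, the log2 fold changes were 0.24 and 0.30.

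**Figure D3:**
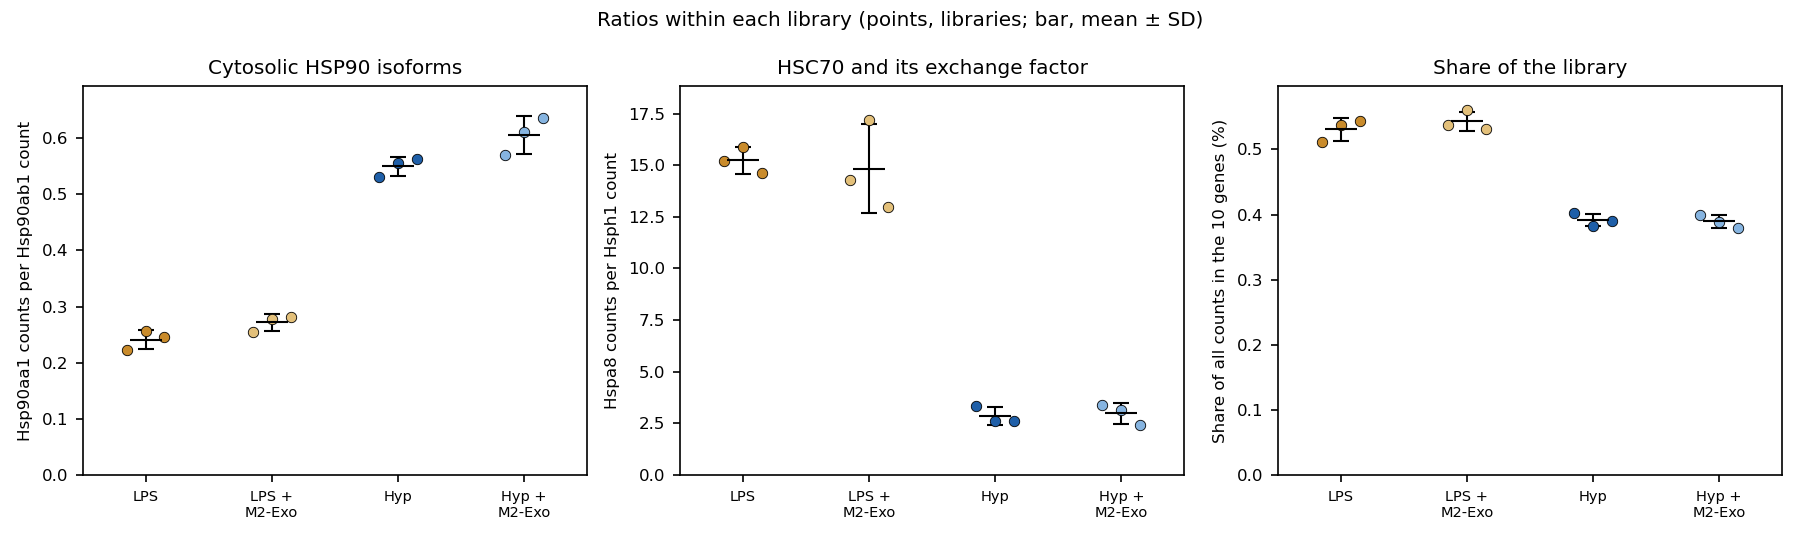
Counts of Hsp90aa1 per count of Hsp90ab1, counts of Hspa8 per count of Hsph1 and the share of all counts in the 10 genes (%), on linear axes from 0, with 1 point per library and bars for the mean ± SD of 3 libraries. The first ratio is 0.241 ± 0.0176 in LPS and 0.550 ± 0.0169 in Hyp, and the share is 0.531% ± 0.0176 in LPS and 0.392% ± 0.00945 in Hyp.

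Together the 10 genes took 0.531% ± 0.0176 (SD, n = 3) of all counts in LPS and 0.392% ± 0.00945 in Hyp. The lower share lay in Hspa8 and Hsp90ab1, the 2 members with the most counts in LPS. The 8 others summed to 1272, 1362 and 1386 CPM in LPS and to 1740, 1737 and 1783 CPM in Hyp. The direction of the sum thus depends on which members enter it, and no summed level was tested.

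The same comparison with M2-Exo in both groups used other libraries. There 9 of the 10 genes passed (edgeR, adjusted p under 0.05), 4 higher and 5 lower, beside 73.7% of the 13660 genes tested (37.1% higher, 36.5% lower), and 9 had groups that did not overlap, beside 77.0% of all genes. Hspa8 had 1584, 2000 and 1557 CPM in LPS + M2-Exo and 518.8, 500.3 and 398.2 CPM in Hyp + M2-Exo, 3.63-fold lower. Hspa1a (2.36, 2.72 and 2.23 CPM against 0.959, 0.939 and 0.815 CPM) was 2.67-fold lower and Hspa1b (5.89, 6.54 and 6.20 CPM against 1.63, 1.74 and 3.07 CPM) 2.91-fold lower. Replicate 3 of Hyp + M2-Exo, with 64 counts against 39 and 39, was the high library of Hspa1b, yet it stayed below every LPS + M2-Exo library.

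Hsp90ab1 was 1.65-fold lower in Hyp + M2-Exo than in LPS + M2-Exo (1575, 1467 and 1451 against 2569, 2383 and 2467 CPM), and Dnajb1 1.15-fold lower (96.1, 99.7 and 107.1 against 111.3, 117.9 and 119.5 CPM). Scaled by library size alone, Dnajb1 did not pass (log2 -0.11, edgeR adjusted p = 0.0936). Hsp90aa1, Hsph1 and Hspd1 were 1.35, 1.37 and 1.26-fold higher. Hspb1 gave 80.1, 77.4 and 79.5 CPM in Hyp + M2-Exo and 81.7, 71.1 and 71.5 CPM in LPS + M2-Exo, where replicate 1 lay above all Hyp + M2-Exo libraries, and it did not pass (log2 0.08, 95% confidence interval -0.07 to 0.23, edgeR adjusted p = 0.296). Without that library the value was 0.14 with an adjusted p of 0.0383, and over all libraries left out in turn it ran from 0.04 to 0.14, with adjusted p up to 0.654. With scaling by library size alone, Hspb1 passed at a log2 value of 0.17. In these groups, too, macrophage markers were lower in hyperoxia, at 369.0 to 419.1 CPM in LPS + M2-Exo and 94.1 to 139.3 CPM in Hyp + M2-Exo. The epithelial list summed to 550.5 to 576.3 and 328.3 to 351.4 CPM, with 5 of the 8 tested lower and 1 higher (edgeR, median log2 -0.70). The part of either list in the result was not tested.

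**Figure D4:**
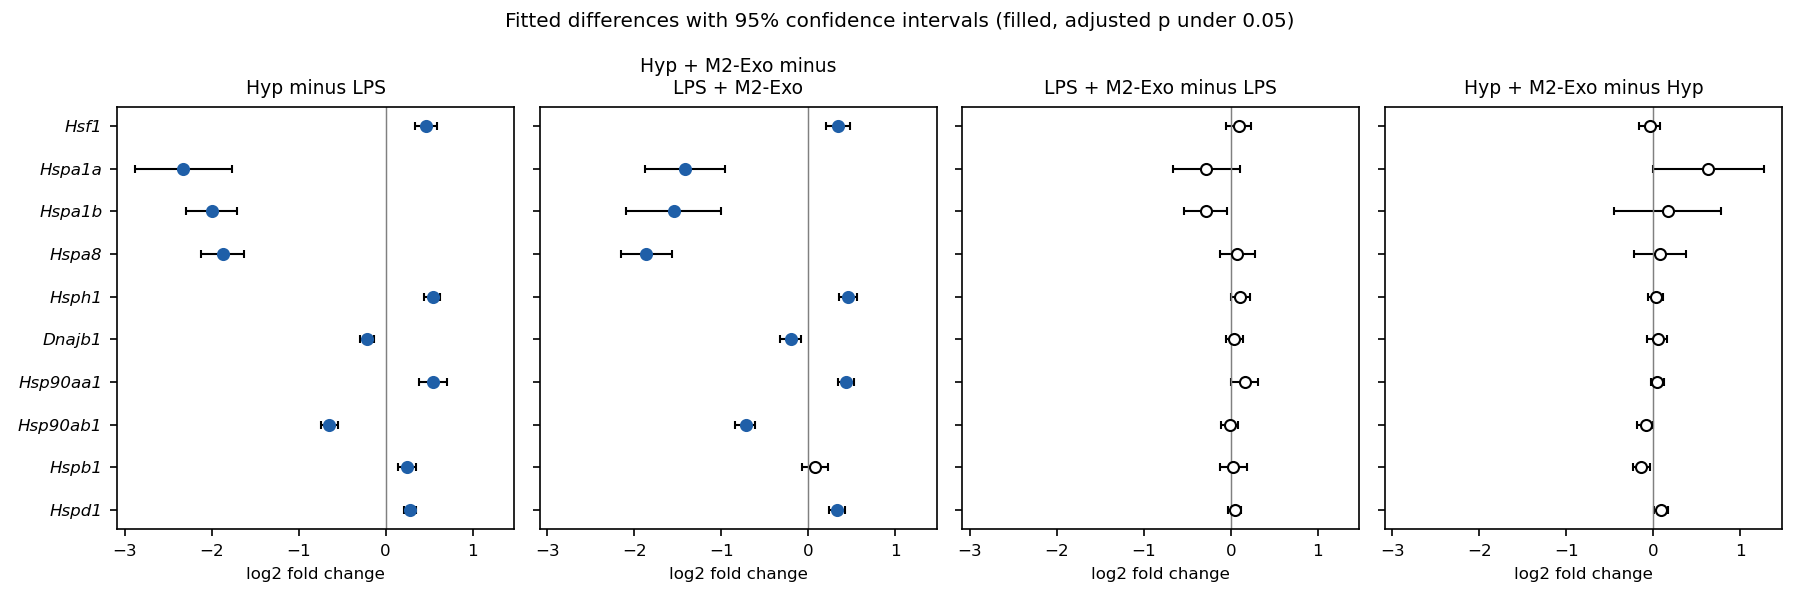
Fitted log2 fold changes of the 10 genes with 95% confidence intervals in 4 comparisons of 3 against 3 libraries, filled where the edgeR adjusted p was under 0.05. The first 2 panels hold 10 and 9 filled points, from -2.33 (Hspa1a, Hyp minus LPS) to 0.54, and the 2 M2-Exo panels hold none.

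The study's main question was the effect of M2-Exo within each injury. In hyperoxia, none of the 10 genes passed, beside 0.101% of 13815 genes (edgeR quasi-likelihood, adjusted p under 0.05). At an unadjusted p under 0.05 there were 2, beside 8.48% of all genes, and DESeq2 called 0, with 1 at an unadjusted p under 0.05. DESeq2 gave Hspa1a no adjusted p in this comparison, so it could not be called there. Hspb1 was lower in all 3 Hyp + M2-Exo libraries (80.1, 77.4 and 79.5 CPM) than in any Hyp library (87.6, 84.6 and 87.3 CPM), by 1.10-fold (log2 -0.14, 95% confidence interval -0.23 to -0.04, adjusted p = 0.544). Hspd1 was higher in all 3 (510.3, 497.3 and 480.0 against 459.7, 454.1 and 477.2 CPM), by 1.07-fold (log2 0.09, interval 0.01 to 0.17, adjusted p = 0.575).

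Hspa1a had the widest interval in hyperoxia. It had 23, 21 and 17 counts with M2-Exo and 15, 9 and 18 without, or 0.959, 0.939 and 0.815 CPM against 0.620, 0.395 and 0.722 CPM. The log2 difference was 0.63, with an interval from -0.01 to 1.27 (edgeR adjusted p = 0.589), so that the interval reached from no difference to a 2.41-fold higher level. With Hspa1b the sum differed by 0.29 (adjusted p = 0.671). Hspa1a, Hsp90aa1 (log2 0.04), Hspb1 and Hspd1 were the 4 members whose libraries did not overlap, as was the case for 16.0% of all genes.

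Of the other members in hyperoxia, Hsp90ab1 had 1575, 1467 and 1451 CPM with M2-Exo and 1628, 1570 and 1578 CPM without, with overlap (log2 -0.09, interval -0.19 to 4.48e-05). The intervals of Hsf1 (-0.16 to 0.07), Hsph1 (-0.06 to 0.11), Dnajb1 (-0.07 to 0.16) and Hsp90aa1 (-0.03 to 0.12) left out changes of the size seen between the injuries for Hsf1, Hsph1 and Hsp90aa1. The intervals of Hspa8 (-0.22 to 0.38) and Hspa1b (-0.45 to 0.78) were wider, that of Hspa1b nearly as wide as that of Hspa1a. Of the 11 macrophage markers tested in this comparison, 10 had negative values with a median of -0.09, 0 passed (edgeR), and their part in these values was not tested. The value of Hspa1b rested on 1 library, since it was 0.17 with replicate 3 of Hyp + M2-Exo and -0.18 without it.

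In LPS likewise none of the 10 passed, beside 0.187% of 13353 genes (edgeR, adjusted p under 0.05). There were 2 at an unadjusted p under 0.05, beside 11.1% of all genes, and DESeq2 called 0, with 1 at an unadjusted p under 0.05. Hspa1b was lower in all 3 LPS + M2-Exo libraries (95, 101 and 111 counts, or 5.89, 6.54 and 6.20 CPM) than in LPS (8.03, 6.99 and 7.77 CPM), by 1.22-fold (log2 -0.29, interval -0.54 to -0.04, adjusted p = 0.378). Hspa1a had a like value of -0.28 (interval -0.67 to 0.11), or -0.18 without replicate 1 of LPS, with libraries that overlapped. The sum of the pair differed by -0.29 (edgeR adjusted p = 0.368).

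Hsph1 had 110.8, 116.5 and 119.8 CPM in LPS + M2-Exo and 103.5, 105.8 and 111.9 CPM in LPS, with overlap (log2 0.11, interval 0.00291 to 0.22, edgeR adjusted p = 0.442). Hsp90aa1 had 656.0, 662.5 and 696.0 CPM, all above the LPS libraries (534.1, 634.4 and 638.9 CPM), with a log2 difference of 0.16, or 0.07 without replicate 1 of LPS. Hspa1b and Hsp90aa1 were the 2 members without overlap, as were 17.2% of all genes. Hspa8 overlapped, with 1 high library (replicate 2 of LPS + M2-Exo, 2000 CPM) that turned the log2 difference from 0.07 to -0.05 when left out. The intervals of Hsp90ab1 (-0.11 to 0.08), Dnajb1 (-0.06 to 0.14), Hspd1 (-0.03 to 0.12), Hspb1 (-0.12 to 0.19) and Hsf1 (-0.06 to 0.23) all held 0. Of the macrophage markers tested between LPS + M2-Exo and LPS, 10 of 11 had negative values with a median of -0.31 and 0 passed (edgeR). Their part in these values was not tested.

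The M2-Exo differences in hyperoxia and in LPS were compared by the interaction term over all 12 libraries. None of the 10 genes passed, beside 0.0352% of 14187 genes (edgeR, adjusted p under 0.05). Only Hspa1a had an unadjusted p under 0.05 (0.0130, edgeR, adjusted p = 0.399), with a log2 value of 0.91 and an interval of 0.23 to 1.59, and 9.78% of all genes reached this level. DESeq2 called 0 and had 1 gene at an unadjusted p under 0.05. The other values lay between -0.16 (Hspb1) and 0.46 (Hspa1b). Without replicate 3 of Hyp + M2-Exo the value of Hspa1b was 0.12, and without replicate 1 of LPS + M2-Exo that of Hspb1 was -0.09.

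A wider set of 97 chaperone genes in 9 lists was described by counts, list medians and single genes, and no list was tested as a whole. In neither M2-Exo comparison nor in the interaction did any of these genes pass (edgeR, adjusted p under 0.05). At an unadjusted p under 0.05 there were 4 of 90 tested in hyperoxia, 9 of 91 in LPS and 7 of 91 in the interaction, beside 8.48%, 11.1% and 9.78% of all genes. Between Hyp and LPS, 67 of 91 passed, 45 higher and 22 lower in Hyp, or 73.6% beside 75.8% of all genes (38.0% higher, 37.8% lower).

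The mitochondrial list had the largest list median between Hyp and LPS, 0.59 beside 0.00922 over all genes, with 8 of 10 genes higher in Hyp and 1 lower, beside 38.0% higher and 37.8% lower of all genes. Lonp1, a matrix protease, was at 604.8 ± 12.1 CPM (SD, n = 3) in Hyp and 183.7 ± 6.36 CPM in LPS, 3.29-fold higher. Hspa9, the mitochondrial HSP70, was at 1179 ± 27.4 and 429.0 ± 6.55 CPM, 2.75-fold higher, and its J-domain partner Dnaja3 was 2.18-fold higher. With M2-Exo on both sides, the 3 genes were 3.01, 2.74 and 1.82-fold higher. Hspd1, which works in the same compartment, stood at 1.22-fold.

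Among further HSF1 target genes 6 were higher and 8 lower of 19 tested, so that 73.7% passed, near the 75.8% of all genes. Zfand2a, a heat-inducible regulator of the proteasome, was at 281.3 ± 6.51 CPM in Hyp and 56.7 ± 3.17 CPM in LPS, 4.97-fold higher, and 5.17-fold higher with M2-Exo on both sides. Of the HSF family and its binding proteins, the 3 tested passed as higher in Hyp (Hsf2, Hsf4 and Hsbp1), beside 38.0% of all genes. With M2-Exo on both sides Hsf2 and Hsbp1 passed as higher, beside 37.1% of all genes, and Hsf4 did not pass (log2 0.29, edgeR adjusted p = 0.0881).

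Of the HSP70 family and its exchange factors, 6 were higher and 5 lower of 13 (84.6% passed, beside 75.8% of all genes). Hspa2, an HSP70 known from the testis, was at 16.6 ± 0.720 CPM in Hyp and 51.0 ± 3.46 CPM in LPS, 3.07-fold lower. Of the J-domain co-chaperones 7 were higher and 1 lower of 13 (61.5% passed, beside 75.8% of all genes), and Dnajc13, an endosomal member, was 1.64-fold higher. Of the HSP90 co-chaperones 9 were higher and 4 lower of 15 (86.7% passed, beside 75.8% of all genes). Tsc1, a subunit of the TSC complex that also binds HSP90, was 1.70-fold higher in Hyp + M2-Exo than in LPS + M2-Exo. Of the CCT chaperonin 4 were higher and 2 lower of 8 (75.0% passed), and of prefoldin 2 and 1 of 6 (50.0% passed). Over all genes 75.8% passed, 38.0% higher and 37.8% lower, so the CCT share was near that of all genes. None of the 4 other small heat shock proteins tested passed (edgeR; 0 at an unadjusted p under 0.05), beside 75.8% of all genes. Their levels were low, with group means from 0.748 to 13.9 CPM in Hyp and LPS, so smaller changes could be missed.

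**Figure D5:**
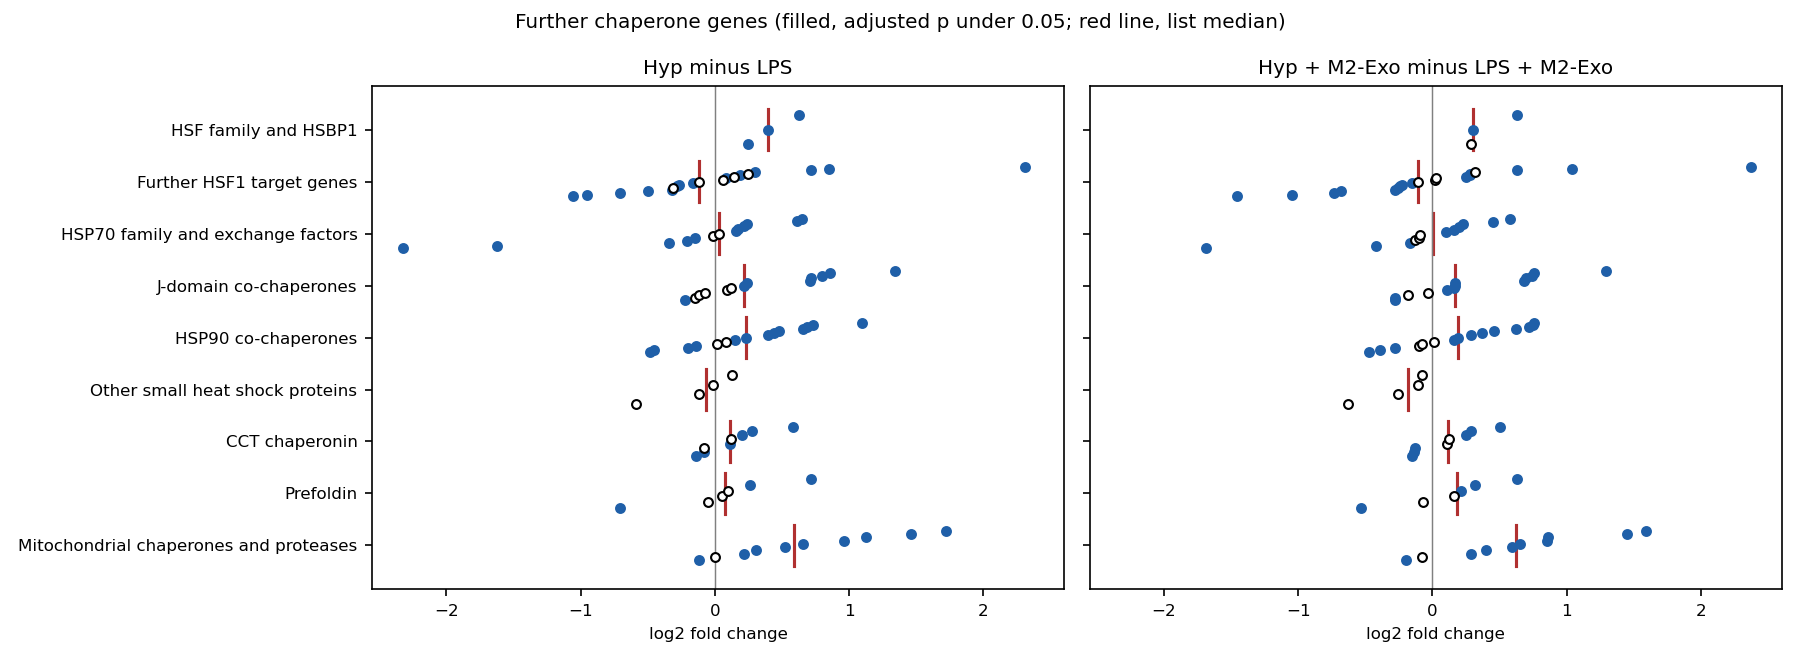
Log2 fold changes of the chaperone genes of the 9 lists, without M2-Exo (left) and with M2-Exo (right) on both sides, 1 point per gene tested, filled where the edgeR adjusted p was under 0.05, with a red line at the list median. The mitochondrial list has its median at 0.59 on the left and 0.62 on the right, and the further HSF1 targets at -0.12 and -0.11.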

How the data were processed

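RNA sequencing of poly(A)-selected RNA from 12 libraries (4 groups of 3) was analysed from 1 table. The authors filtered the reads with Seqtk, and the submitters' processing notes name HISAT2 2.0.4, StringTie 1.3.0, edgeR and the build GRCm38. The counting program and annotation are not given in the sources used here. The deposited counts are reads per gene, not normalized. The deposited FPKM follow from these counts to a relative 7.16e-05, with lengths above the gene's span for 905 of the 15054 genes whose length could be worked out (6.0%). Of the identifiers, 98.85% were found in GENCODE M21.

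Counts were tested in R 4.3.3 with edgeR 4.0.16 (filterByExpr, TMM, quasi-likelihood F test, Benjamini-Hochberg over all genes tested, called at an adjusted p under 0.05). Each pair of groups was fitted on its 6 libraries and the interaction on all 12. Comparisons that share a group share its libraries. Alternatives were RLE or library size alone, no filter or at least 10 counts in every library, DESeq2 1.42.0, all 12 libraries in 1 fit, the replicate number as a block, Hspa1a and Hspa1b summed, and each library left out. Adding the counts of pseudogene copies was chosen after seeing the data. The 10 genes and the lists were chosen with earlier results of these data known. Every one of the 10 is named, and of the 9 lists (97 genes) up to 6 genes per comparison, those with the smallest adjusted p, beside lists of at most 3 tested genes. A gene that this rule names is not reported here. Total counts ran from 16021833 to 24074616 per library, of which Hspa1a had 9 to 61.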

Additional observations from a re-analysis of the deposited data

How the results depend on the processing

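The number of the 10 genes that passed stayed at 0 in both M2-Exo comparisons and in the interaction under every alternative run. In hyperoxia, Hspa1a had no adjusted p with DESeq2 and was filtered out at 10 counts in every library, so these settings could not call it. Between Hyp and LPS it was 10, or 9 where Hspa1a was filtered out or counted with Hspa1b, and with M2-Exo on both sides 8 to 10. With library size alone, and M2-Exo on both sides, Dnajb1 no longer passed (log2 -0.11, edgeR adjusted p = 0.0936) and Hspb1 did (0.17, adjusted p = 0.0428). Signs turned only when a library was left out, and only for values that did not pass. In hyperoxia with M2-Exo these were Dnajb1 (-0.00128 to 0.08) and Hspa1b (-0.18 to 0.34), each without replicate 3 of Hyp + M2-Exo. In LPS with M2-Exo they were Hsp90ab1 (-0.04 to 0.02), Hspb1 (-0.04 to 0.07) and Hspa8 (-0.05 to 0.14), and in the interaction Dnajb1 (-0.03 to 0.04) and Hspa8 (-0.06 to 0.16). The cause was not tested.

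Over all genes, the calls moved from 14 to 37 in hyperoxia, from 25 to 125 in LPS and from 5 to 67 in the interaction with DESeq2, and to 2 in hyperoxia and 12 in LPS when all 12 libraries were fitted together. With the replicate number as a block they were 8, 6 and 3. Same-numbered libraries correlated by at most 0.078 in their deviations from group means. In Hyp + M2-Exo against Hyp, and in Hyp against LPS, the closest library always had the same number. In LPS + M2-Exo against LPS this held for replicate 2 only, and with M2-Exo on both sides for none. Whether the numbers pair the libraries is thus not settled. The block changed no call among the 10 genes. Leaving out a library gave 12 to 21 calls in hyperoxia, 21 to 39 in LPS (39 without replicate 1 of LPS) and 4 to 34 in the interaction. There it gave 34 without replicate 1 of Hyp + M2-Exo, 10 without replicate 2 of LPS + M2-Exo, 9 without replicate 3 of LPS or replicate 2 of Hyp, and 8 without replicate 1 of LPS. Hspa1a had the fewest counts, 9 to 61 per library, and counting error and spread between libraries were not told apart.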

Other observations

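By a rule that took the mean z-score of log2 CPM over the 10 genes, the 5 other genes (of 9309 with at least 10 CPM on average) with the most similar pattern over the 12 libraries were Chst2 (Pearson r = 0.899), Mmp17 (0.840), Rnf24 (0.837), Rnf10 (0.798) and Man1a (0.793). The 12 libraries share their scaling and the 4 groups, and the values are descriptions with no test. The mean z-score itself spanned only -0.15 (LPS replicate 2) to 0.16 (LPS + M2-Exo replicate 3), with 5 of the genes higher and 5 lower in Hyp than in LPS.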
